A study of Mus musculus with 20 samples.

Results

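The 10 genes described here encode secreted signals of the TGF-beta superfamily, their receptors and nearby effectors: the ligands Tgfb1, Tgfb2 and Tgfb3, the receptors Tgfbr1 and Tgfbr2, the matricellular genes Ccn1 and Ccn2, the activin subunit Inhba, the bone morphogenetic protein Bmp7, and Gdf15. They were taken by symbol from a table of 55822 genes of whole mouse kidney. All 10 were found and all 10 passed the filter on low counts, among 16266 genes tested. Controls were 5 male C57BL/6J mice, an inbred strain, given phosphate-buffered saline (PBS), and 5 further males received puberulic acid, a tropolone made by certain Penicillium moulds, at 1 mg per day. All animals were 8 weeks old and had 6 daily administrations, and kidneys were taken on day 7. The labels allow for gavage or for injection into the peritoneum and do not give the route of each animal. A further 10 animals received a normal or a toxic lot of the supplement Choleste-Help at 1000 mg per day, and their values were not used here.

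TGF-beta ligands are made as latent dimers that are stored in the matrix and released by integrins and proteases. The released ligand joins a type II receptor to a type I receptor, which phosphorylates SMAD2 and SMAD3, while BMP7 acts through SMAD1 and SMAD5. In kidney, TGF-beta is best known for driving matrix production in fibrosis, BMP7 for maintaining the differentiated tubule, and GDF15 as a circulating stress signal induced through p53 and the ATF4 pathway.

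Libraries held between 18409877 and 24705587 estimated counts. Levels are given as CPM, a gene's counts relative to its library's total, scaled by TMM, a method that sets libraries to a common level for most genes. The 2 groups separated on the first principal component, on which the controls lay between -72.8 and -61.1, puberulic acid replicate 1 at 36.3 and puberulic acid replicates 2 to 5 between 71.0 and 81.5. Differential expression was called at an adjusted p under 0.05 in the quasi-likelihood test of edgeR, with p-values adjusted after Benjamini and Hochberg over all genes tested, and every adjusted p below is from that test unless another fit is named. By that rule 65.3% of all genes tested were called, 34.2% higher and 31.1% lower, and in 50.1% every treated animal lay outside the control range. The change was therefore wide, and a call on 1 gene has to be read against those shares. With libraries scaled to total counts the median log2 fold change of all genes went from 0.05 to 0.56, so each change is stated relative to TMM.

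Promoter sequence from RefSeq (build GRCm38.p6, 250 bases before to 50 after each annotated start) was matched for 7 of the 10 genes, all but Ccn2, Tgfb3 and Bmp7. It was searched for the AP-1 site TGANTCA, the cyclic AMP element TGACGTCA, the TEAD site GGAATG, the SMAD palindrome GTCTAGAC, the C/EBP-ATF element TGATGCAA (each on both strands) and the TATA box TATAAA (on the gene's strand). Of 32544 windows of this length, 7.79%, 1.80%, 14.6%, 0.215%, 0.867% and 8.28% held them, in that order. The transcripts of all 7 genes rose with puberulic acid, whether or not a motif was found. The windows of the 4 genes with a match are shown. They lie at chr3:145649936-145650235 (minus strand) for Ccn1, chr13:16011601-16011900 (plus strand) for Inhba, chr1:186705940-186706239 (minus strand) for Tgfb2 and chr8:70632046-70632345 (minus strand) for 1 of the 2 Gdf15 starts, all in GRCm38.p6. Capitals mark the matches.
Ccn1: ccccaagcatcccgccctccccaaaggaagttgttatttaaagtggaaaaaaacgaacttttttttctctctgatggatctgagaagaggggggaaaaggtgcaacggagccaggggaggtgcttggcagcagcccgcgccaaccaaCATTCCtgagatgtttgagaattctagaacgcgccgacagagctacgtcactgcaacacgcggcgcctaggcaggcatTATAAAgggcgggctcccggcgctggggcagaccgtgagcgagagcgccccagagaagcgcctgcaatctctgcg
Inhba: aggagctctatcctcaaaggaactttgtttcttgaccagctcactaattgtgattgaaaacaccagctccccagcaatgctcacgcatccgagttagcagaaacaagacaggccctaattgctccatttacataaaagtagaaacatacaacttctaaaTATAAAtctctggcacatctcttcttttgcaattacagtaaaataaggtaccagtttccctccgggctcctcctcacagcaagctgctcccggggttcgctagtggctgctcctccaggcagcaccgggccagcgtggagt
Tgfb2: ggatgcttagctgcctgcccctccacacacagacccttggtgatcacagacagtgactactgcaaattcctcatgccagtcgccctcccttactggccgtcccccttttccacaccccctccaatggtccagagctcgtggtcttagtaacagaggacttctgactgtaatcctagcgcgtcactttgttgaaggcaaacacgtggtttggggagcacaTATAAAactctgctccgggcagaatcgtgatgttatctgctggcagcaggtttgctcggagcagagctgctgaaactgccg
Gdf15: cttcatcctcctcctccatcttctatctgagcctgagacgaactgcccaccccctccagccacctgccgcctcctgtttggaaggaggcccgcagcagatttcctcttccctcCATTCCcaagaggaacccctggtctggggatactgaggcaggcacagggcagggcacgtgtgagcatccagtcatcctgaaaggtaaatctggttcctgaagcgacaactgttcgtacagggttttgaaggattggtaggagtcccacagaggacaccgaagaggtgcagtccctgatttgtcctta
With positions counted from the start, Ccn1 held the TEAD letters on the opposite strand at -103 to -98 and a TATA box at -25 to -20. Tgfb2 held a TATA box at -31 to -26, and Inhba the same letters at -91 to -86. The Gdf15 window held the TEAD letters on the opposite strand at -137 to -132. None of these motifs was found in the windows of Tgfb1, Tgfbr1 and Tgfbr2 or at the other Gdf15 start. These matches describe letters only.

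Of the 10 genes, 9 were higher with puberulic acid and Bmp7 was lower, and in all 10 the animals of the 2 groups did not overlap, a pattern that 50.1% of all genes shared. The median log2 fold change of the 10 was 2.25, against 0.05 over all genes tested. The 10 genes were chosen with earlier results of these data known. The calls held in each of the 19 alternative fits, and so did the directions.

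**Figure D1:**
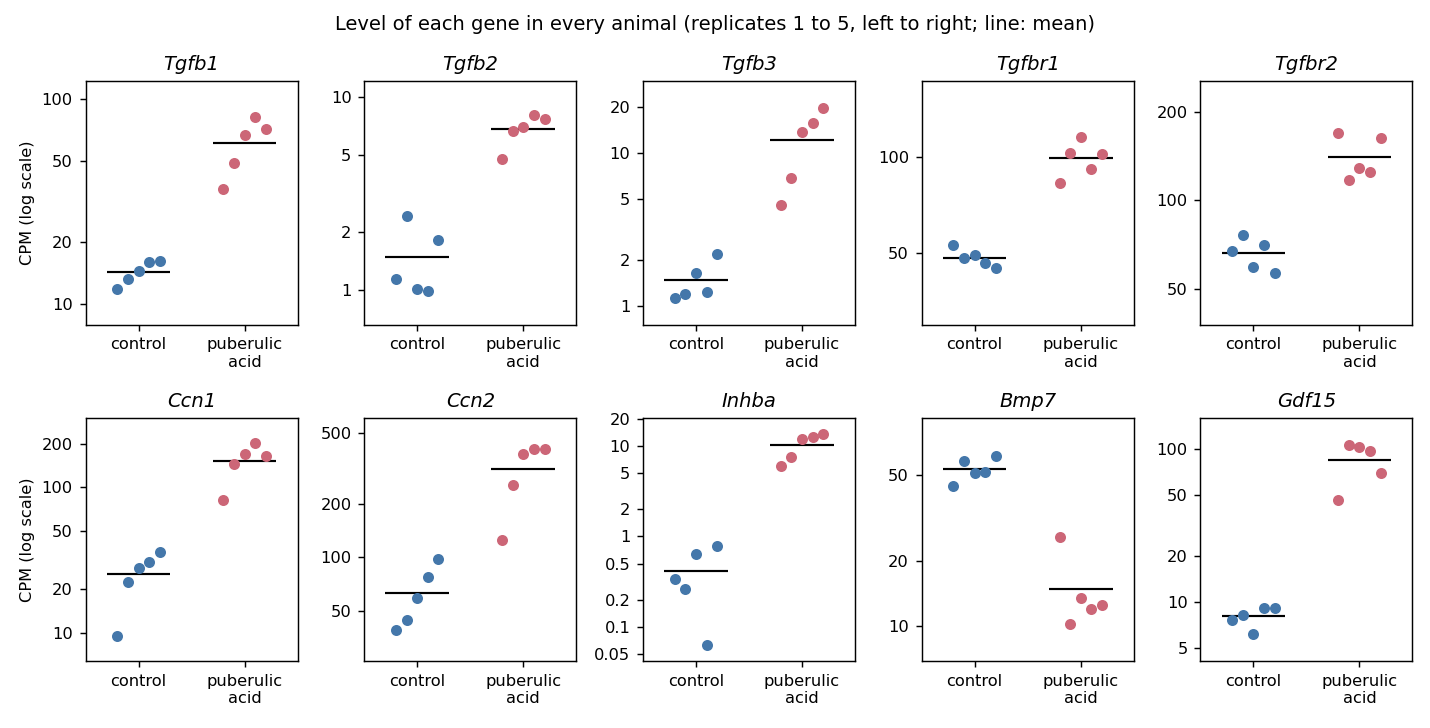
Level of the 10 genes in CPM (log axis) in each of 5 control animals (blue) and 5 puberulic acid animals (red), with the mean of each group as a line. In each panel the red points lie wholly above the blue points, except for Bmp7, where they lie wholly below.

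All 3 TGF-beta ligand genes rose, Tgfb3 by the largest fitted fold. Tgfb1 (ENSMUSG00000002603), which encodes the main ligand of the injured kidney, stood at 11.9, 13.3, 14.4, 16.0 and 16.3 CPM in control replicates 1 to 5 and at 36.3, 48.7, 66.7, 81.3 and 71.5 CPM in puberulic acid replicates 1 to 5. The lowest treated animal was above the highest control by more than the whole control range. The mean of 5 animals went from 14.4 ± 1.83 to 60.9 ± 18.2 CPM (SD), and the fitted log2 fold change was 2.08 ± 0.20 (SE, edgeR adjusted p = 3.05e-06). Tgfb2 (ENSMUSG00000039239) was at 1.14, 2.43, 1.02, 0.997 and 1.82 CPM in controls, from 16 to 46 counts per library, and at 4.75, 6.65, 6.95, 8.03 and 7.65 CPM with puberulic acid. Its log2 fold change was 2.19 ± 0.28 (SE, edgeR adjusted p = 2.41e-05). Tgfb3 (ENSMUSG00000021253) was at 1.14, 1.21, 1.65, 1.25 and 2.21 CPM in controls, from 20 to 34 counts, and at 4.57, 6.86, 13.8, 15.6 and 19.6 CPM with puberulic acid. The treated animals were far apart for this ligand, with replicates 1 and 2 low and replicates 3 to 5 high. Its log2 fold change was 3.02 ± 0.40 (SE, edgeR adjusted p = 3.54e-05).

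Ratios of counts within an animal do not depend on how libraries are scaled. The Tgfb3 to Tgfb1 ratio, which is not corrected for transcript length, ran from 0.0778 to 0.135 among the controls and from 0.126 to 0.274 among the treated animals. The mean log2 ratio was higher by 0.84 with the compound, but the groups overlapped. For Tgfb2 to Tgfb1 the ranges were 0.0623 to 0.182 and 0.0987 to 0.136, so that the treated animals lay inside the control range.

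Both receptor genes rose, with smaller fitted folds than the ligands. Tgfbr1 (ENSMUSG00000007613), the type I receptor kinase, was at 53.1, 48.2, 49.4, 46.4 and 44.8 CPM in controls and at 82.7, 102.7, 115, 91.8 and 101.9 CPM with puberulic acid. Its log2 fold change was 1.03 ± 0.10 (SE, edgeR adjusted p = 2.21e-06). Tgfbr2 (ENSMUSG00000032440), the type II receptor that binds the ligand first, was at 67.4, 76.3, 59.0, 70.7 and 56.4 CPM in controls and at 170.3, 117.3, 129.3, 125.3 and 163.0 CPM with puberulic acid. Here replicates 1 and 5 were the high treated animals, whereas replicate 1 was the lowest treated animal for Tgfbr1. Its log2 fold change was 1.10 ± 0.13 (SE, edgeR adjusted p = 1.30e-05). The Tgfbr1 to Tgfbr2 count ratio was 0.632 to 0.837 across controls against 0.486 to 0.890 across treated animals, an overlap in which the treated animals spread to either side.

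Ccn1 and Ccn2, which encode matrix-associated proteins formerly named CYR61 and CTGF and induced by TGF-beta and by the YAP-TEAD factors, rose in every treated animal. Ccn1 (ENSMUSG00000028195) was at 9.59, 22.4, 28.2, 30.6 and 36.1 CPM in controls and at 82.6, 145.9, 170.1, 200.9 and 163.3 CPM with puberulic acid. Control replicate 1 was the low control and puberulic acid replicate 1 the low treated animal. The log2 fold change was 2.59 ± 0.32 (SE, edgeR adjusted p = 2.36e-05). Ccn2 (ENSMUSG00000019997) was at 39.0, 44.3, 58.9, 77.1 and 97.5 CPM in controls and at 125.3, 256.4, 380.0, 406.1 and 405.3 CPM with puberulic acid. Its controls were spread, and the gap from the highest control to puberulic acid replicate 1 was smaller than the control range. The log2 fold change was 2.31 ± 0.34 (SE, edgeR adjusted p = 8.45e-05). The count ratio of Ccn1 to Ccn2 was 0.246 to 0.505 across controls against 0.403 to 0.659 across treated animals, with overlap.

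Inhba and Bmp7 moved in opposite directions. Inhba (ENSMUSG00000041324), whose dimer is activin A, a ligand that like TGF-beta signals through SMAD2 and SMAD3, had 6, 5, 10, 1 and 12 counts in control replicates 1 to 5. These counts amount to 0.342, 0.264, 0.636, 0.0623 and 0.779 CPM. With puberulic acid it had 164, 177, 283, 306 and 427 counts, or 6.09, 7.54, 12.0, 12.5 and 13.7 CPM. The transcript was thus near the limit of detection in controls, where 3 counts correspond to 0.158 to 0.195 CPM, and had at least 164 counts in each treated animal. The log2 fold change was 4.64 ± 0.43 (SE, edgeR adjusted p = 2.33e-06), the largest of the 10 genes, on low control counts. Bmp7 (ENSMUSG00000008999) was at 44.8, 58.4, 51.5, 51.6 and 61.8 CPM in controls and at 25.9, 10.2, 13.5, 11.9 and 12.5 CPM with puberulic acid. Puberulic acid replicate 1 kept more Bmp7 than the other treated animals, and all 5 were below the lowest control. Its log2 fold change was -1.85 ± 0.23 (SE, edgeR adjusted p = 1.96e-05), and it was -2.18 once puberulic acid replicate 1 was left out. The Inhba to Bmp7 count ratio rose from between 0.00121 and 0.0126 in controls to between 0.235 and 1.09 with puberulic acid, without overlap.

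Gdf15 (ENSMUSG00000038508), a distant member of the family that signals through the brainstem receptor GFRAL, rose about 10.5-fold on the ratio of group means. It was at 7.59, 8.17, 6.11, 9.10 and 9.16 CPM in controls and at 46.1, 106.5, 102.3, 97.3 and 70.0 CPM with puberulic acid. Replicates 2 to 4 were close together, with replicates 1 and 5 lower, and the lowest treated animal was far above the highest control. The log2 fold change was 3.39 ± 0.23 (SE), and its edgeR adjusted p of 1.94e-07 was the smallest of the 10 genes.

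By fitted log2 fold change the 10 genes ran in the order Inhba, Gdf15, Tgfb3, Ccn1, Ccn2, Tgfb2, Tgfb1, Tgfbr2, Tgfbr1 and, below 0, Bmp7. Within the run from Ccn1 to Tgfb1 neighbours differed by less than their standard errors, as did Tgfbr2 and Tgfbr1. Differences between genes were not tested. Total-count scaling moved all 10 values upward, to 1.54 for Tgfbr1, 1.61 for Tgfbr2 and -1.35 for Bmp7, and no direction changed.

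**Figure D2:**
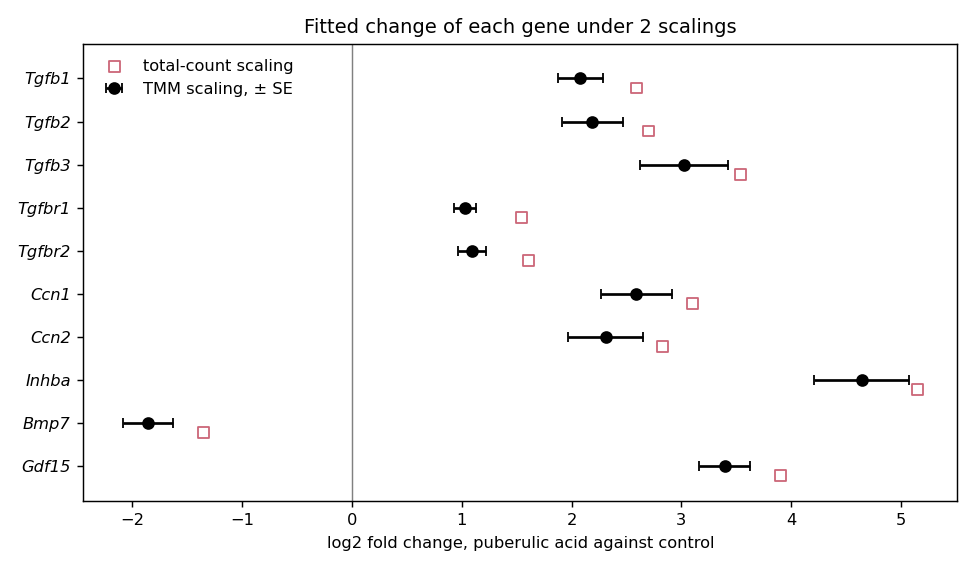
Fitted log2 fold change of each of the 10 genes (x axis), with TMM scaling (filled points, bars ± SE, 5 animals per group) and with libraries scaled to total counts (open squares). Inhba is at 4.64 and Bmp7 at -1.85 with TMM scaling, and total-count scaling moves all 10 to the right without a change of side.

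The treated animals differed among themselves. Puberulic acid replicate 1 had the lowest value of its group for 8 of the 10 genes and the highest for the other 2, Tgfbr2 and Bmp7. Replicate 4 was highest for 4 genes. Among the controls, replicate 5 was highest for 7 genes and replicate 1 lowest for 5. Without puberulic acid replicate 1 the log2 fold changes were 2.20 for Tgfb1, 3.21 for Tgfb3, 2.49 for Ccn2 and 3.53 for Gdf15, and 9 genes were again called higher and 1 lower.

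**Figure D3:**
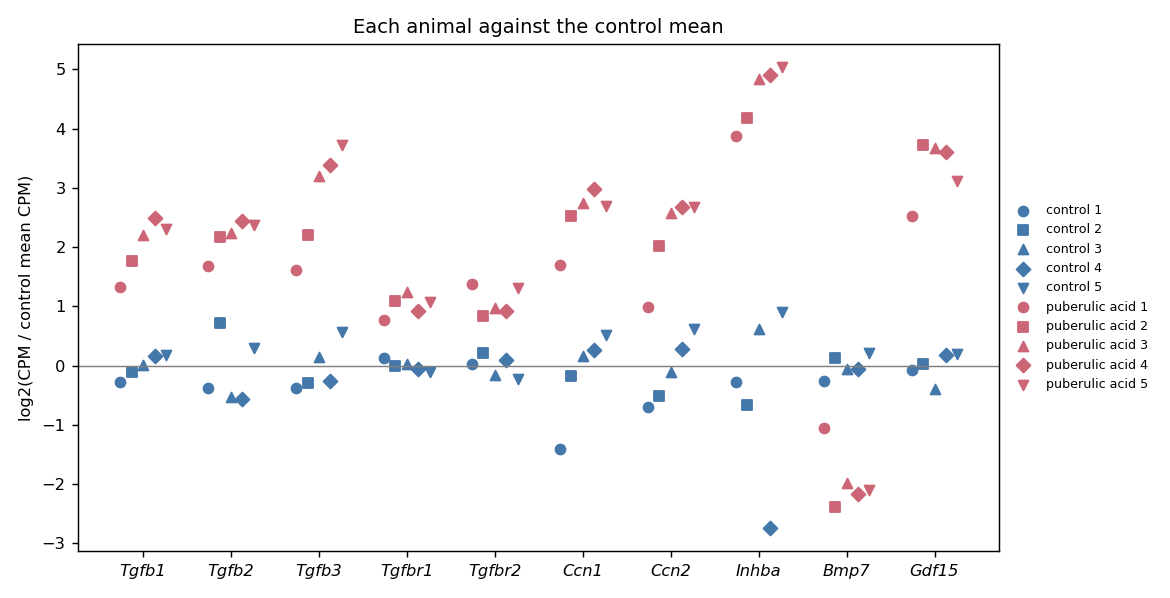
Each animal's level of each gene as log2 of its CPM over the control mean (y axis), with a marker shape per replicate number, controls in blue and puberulic acid in red. Puberulic acid replicate 1 (red circles) lies nearest to the controls for 9 of the 10 genes, all but Tgfbr2.

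The other genes of the pathway were read from 12 lists with 112 genes, of which 102 were tested. Of these, 58 were called higher (56.9%, against 34.2% of all genes), 11 lower (10.8%, against 31.1%) and 33 neither, and the median log2 fold change was 0.76, against 0.05. With total-count scaling 77 were called higher (75.5%, against 56.4% of all genes) and 3 lower (2.94%, against 15.5%). The lists were chosen with earlier results of these data known, so these shares are description only.

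Among 11 genes that store or activate latent TGF-beta, 6 were higher and 2 lower (7 and 1 with total-count scaling). Ltbp2, named as a latent TGF-beta binding protein although its product is known not to bind the latent form, had a log2 fold change of 4.78 ± 0.68 (SE), with means of 0.573 ± 0.560 and 15.8 ± 8.55 CPM (SD over 5 animals). Its control libraries held 1 to 22 counts, and the value was 5.37 without control replicate 5. The other genes of that family did not follow it: Ltbp4 was called lower, at -1.17 (edgeR adjusted p = 0.0135), and Ltbp1 and Ltbp3 were at -0.17 and -0.16, not called. Thbs1, whose product thrombospondin 1 can activate the latent form, rose by 2.85 on the log2 scale. Lrrc32 and Nrros, which encode cell-surface anchors of latent TGF-beta, rose by 2.37 and 2.23. The activating integrin genes did not move alike: Itgb6 rose by 1.54 and Itgb8 had a log2 fold change of -1.51, both called.

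The remaining receptor genes mostly did not pass the test. Of 11 listed and 10 tested, 1 was higher, 2 were lower and 7 were not called, while total-count scaling gave 5 higher and 0 lower. Acvr1, a type I receptor of the BMP branch, rose by 1.40 ± 0.10 (SE) on the log2 scale. The activin receptor genes Acvr2b and Acvr1b had log2 fold changes of -1.33 and -0.51, and with total-count scaling neither was called (-0.82, adjusted p = 0.0563, and 0.00076, adjusted p = 0.996). The other type II receptor genes Bmpr2 and Acvr2a had values of 0.01 and 0.06.

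Of the 6 SMAD genes that carry the signal, 4 were higher. Smad3 rose by 1.09 ± 0.09 (SE), Smad2 by 0.78, Smad1 by 0.63 and Smad4, the common partner, by 0.35 on the log2 scale. Smad5 was at 0.00 and Smad9 at -0.48, neither called. Among 9 inhibitors and feedback genes 5 were higher and 1 lower (7 and 0 with total-count scaling). Tgif1 rose by 1.69, the ubiquitin ligase gene Smurf1 by 1.36, the co-repressor gene Skil by 1.08 and Pmepa1 by 1.03. The inhibitory SMAD genes parted, with Smad7 at 0.58 (called higher) and Smad6 at -0.37 (edgeR adjusted p = 0.0272). The Smad6 call was lost with total-count or upper-quartile scaling, without a filter, and without control replicate 3, control replicate 5 or puberulic acid replicate 2.

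The matrix and mesenchymal genes known to respond to TGF-beta held 14 calls among 15, all higher, with a median log2 fold change of 3.21. Timp1, an inhibitor of matrix proteases, had means of 0.419 ± 0.212 CPM in controls and 119.8 ± 50.9 CPM after dosing (SD over 5 animals), with a log2 fold change of 8.18 ± 0.46 (SE, edgeR adjusted p = 5.48e-08). The fibrillar collagen genes Col1a1 and Col3a1 rose by 4.14 and 4.12. Snai2 was the gene not called, at 0.15.

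Of 9 activin and follistatin genes 6 were tested, and 4 of these were higher and none lower. Inhbb, another activin beta subunit gene, rose by 2.62 ± 0.30 (SE), from 1.97 to 12.1 CPM. The genes of the activin-binding proteins Fst and Fstl3 rose by 1.24 and 1.10, and Fstl1 by 1.86. Inha was at -0.02.

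The small counts in the BMP lists are to be read beside the shares over all genes, 34.2% higher and 31.1% lower (56.4% and 15.5% with total-count scaling). Of 9 other BMP ligand genes 3 were higher (6 with total-count scaling) and 6 were not called, among them Bmp4 at -0.08 and Bmp6 at 0.02. Gdf6 had at most 1 count in each control library and a mean of 4.14 ± 2.31 CPM (SD over 5 animals) in treated ones, which is at least 22.9-fold higher than a control level of 3 counts per library. Bmp1, which encodes a procollagen protease and not a signal despite its name, rose by 1.70. Bmp2 rose by 0.83 (edgeR adjusted p = 0.0304), and the call was lost when control replicate 1, 2 or 3 or puberulic acid replicate 2, 3, 4 or 5 was left out (adjusted p up to 0.0942). Among 10 BMP antagonists and modulators, 9 of them tested, 3 were higher and 4 lower (4 and 2 with total-count scaling). Nbl1 rose by 2.46 ± 0.13 (SE), while Kcp, Chrdl1 and Chrd had log2 fold changes of -1.58, -1.20 and -1.12. With total-count scaling Chrd had an adjusted p of 0.0518. Of 6 BMP responsive genes none was higher and 2 were lower, Id4 at -0.55 and Id2 at -0.52. With total-count scaling these 2 were at -0.04 and -0.02 and not called, and 3 genes of the list were called higher.

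Among the 4 other CCN genes 1 was tested. Ccn4 rose by 3.24 ± 0.30 (SE), from 1.87 to 17.6 CPM. Of 12 YAP-TEAD factors and targets 9 were higher and none lower. The target genes Ankrd1 and Axl rose by 3.77 ± 0.18 and 2.56 ± 0.22 (SE), the factor gene Tead4 by 3.12 and the kinase gene Lats2 by 1.05. Yap1 itself rose by 0.46.

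The list around Gdf15 held its receptor genes and stress regulators, and all 8 genes tested of 10 were higher. Cdkn1a, a p53 target and cell cycle inhibitor, rose by 6.22 ± 0.23 (SE), Atf3 by 4.33 ± 0.27 (SE), Egr1 by 4.19 and Trib3 by 3.70. Atf4, Ddit3 and Trp53 rose by 1.31, 1.82 and 0.98. Gfral, the receptor gene, had 0 counts in all 10 libraries, where 3 counts correspond to at most 0.195 CPM in a library.

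**Figure D4:**
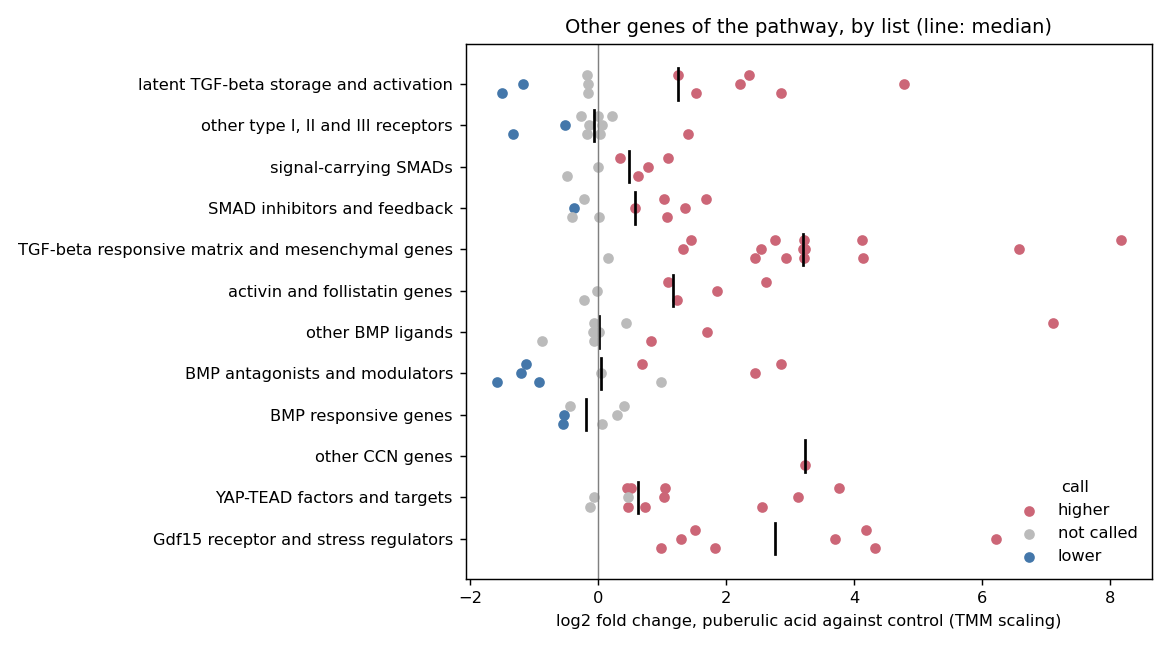
Log2 fold change (x axis, TMM scaling) of the 102 tested genes in 12 lists, coloured by call (red higher, blue lower, grey not called), with each list's median as a black line. The matrix and mesenchymal list has its median at 3.21 and the BMP responsive list at -0.19.

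Markers of some cell types moved alongside these genes. In bulk tissue fewer cells of a type and less RNA per cell cannot be told apart. The proximal tubule markers fell in 8 of 8 genes, with summed levels of 12029 to 14927 CPM across controls against 1297 to 2251 CPM across treated animals. Bmp7 is known from collecting duct, distal tubule and podocytes of the normal kidney. The collecting duct markers fell in 4 of 4 genes, from 348.8 to 543.8 CPM down to 149.2 to 197.8 CPM. Markers of the distal convoluted tubule were called lower in 3 of 4 genes, and those of intercalated cells in 3 of 4. Those of the thick ascending limb were lower in 2 of 4 genes (Umod at 0.06 and Cldn16 at -0.11 were not called), and those of podocytes and of endothelium in 1 of 5 each, against 31.1% of all genes. The endothelial genes Pecam1, Cdh5, Emcn and Flt1 were not called. Puberulic acid replicate 1, the animal with the most Bmp7 of its group, also had the highest sum of its group for proximal tubule, thick limb, distal tubule, collecting duct and intercalated cell markers. Its distal tubule sum was 837.8 CPM, against 243.8 to 370.8 CPM in the other treated animals. Its podocyte sum of 333.4 CPM was below the 436.6 CPM of puberulic acid replicate 5.

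Fibroblast and pericyte markers were higher in 4 of 5 genes, with sums of 69.8 to 99.2 CPM across controls against 106.2 to 287.7 CPM across treated animals. Macrophage markers were higher in 3 of 5, with sums of 66.4 to 159.8 and 126.5 to 401.7 CPM, which overlapped. Over all genes 34.2% were called higher. Pdgfra of the fibroblast list and Adgre1 and Csf1r of the macrophage list were not called. None of the markers in these 2 lists was at 0 throughout a group. The sums of T cell, B cell and neutrophil markers stayed at or under 6.04 CPM in every library. Those of neutrophils were 0.475 to 1.74 CPM across controls and 1.79 to 4.32 CPM across treated animals, without overlap, whereas the T and B cell sums overlapped. The only calls in these lists were Csf3r (neutrophil) and Cd3d (T cell), higher by 1.66 and 1.28 on the log2 scale. Adipocyte marker sums ran from 0.249 to 0.636 CPM across controls and from 3.53 to 70.2 CPM across treated animals, without overlap. Those of adrenal cortex markers ran from 0.342 to 2.08 and from 1.41 to 49.3 CPM, with overlap. Each list had 1 gene tested, Cidec and Star, called higher at 4.68 and 2.89 on the log2 scale. Puberulic acid replicate 3 had the 70.2 and 49.3 CPM, against at most 6.13 and 3.21 CPM in the other treated animals. Adipoq and Lep, of the adipocyte list, were at 0 in all controls. The part of these cell types in the changes of the 10 genes was not tested. All 10 calls held when puberulic acid replicate 3 was left out, with log2 fold changes of 2.03 for Tgfb1, 4.57 for Inhba, -1.83 for Bmp7 and 3.31 for Gdf15.

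The genes closest to Gdf15, Inhba and Bmp7 in how they varied between animals of the same group were found by the Pearson correlation of deviations from the group mean of log2(CPM + 1) over the 10 libraries, among 13180 genes. Nearest to Gdf15 were Tubb2a (r = 0.983), Man2c1 (r = 0.956) and Cldn7 (r = 0.955). Nearest to Inhba were Sf3a3 (r = 0.954), Kif1a (r = 0.946) and Tgfb3 (r = 0.935). Nearest to Bmp7 were Acsf3 (r = 0.978), the phosphate transporter gene Slc34a1 (r = 0.973) and Uqcrc2 (r = 0.972). These values describe 10 points that share library scaling and include puberulic acid replicate 1. They are the 3 highest of 13180 genes for each member, and the r that chance gives such a pick was not worked out.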

How the data were processed

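Poly(A) RNA of whole kidney was sequenced from strand-specific libraries, per the labels' protocols, which give RNA integrity numbers above 7.5. Salmon 1.10.3, fastp 0.22.0 and build GRCm39 are named in the submitters' processing notes without their roles, and the annotation is not given in the sources used here. The authors deposited estimated counts per gene, not normalized, for which a symbol was found for 51344 of 55822 identifiers. The names of 10 sample columns did not show which supplement lot they held, and these columns were not used. Ddit3 had 2 identifiers, of which the one with more counts was used. Columns of 5 control and 5 puberulic acid animals were matched by name.

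Estimated counts were rounded, filtered with filterByExpr, scaled by TMM and tested with edgeR 4.0.16 (limma 3.58.1, R 4.3.3), robust off, without a block. The standard error is the log2 fold change over the square root of F. Counting floors (3 counts) cover counting error only. The code was tested on simulated data. Alternatives were RLE, upper-quartile and total-count scaling, 2 other filters, DESeq2 1.42.0, a robust fit, leaving out mitochondrially encoded and the 10 most abundant genes, a replicate block, and leaving out each animal. All 10 members were named. In each list up to 4 called genes with the largest absolute log2 fold change and a mean of at least 1 CPM in a group were named; 1 gene so chosen is not reported here, and further list genes were chosen after their values were seen, as were the within-animal ratios. Members and lists were chosen with earlier results of these data known. The labels describe 5 mice per group, and p-values measure the spread between these samples.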

Additional observations from a re-analysis of the deposited data

Results flagged for a closer look

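Each gene's CPM was searched within each group for an animal set apart from the next by more than 0.71 of the group's range. Of 20 groups of values 1 held such an animal, where chance gives about 1. Bmp7 stood at 25.9 CPM in puberulic acid replicate 1, against 13.5 CPM in the next animal, a gap of 0.79 of the range. This animal also lay nearest to the controls on the first principal component, and the reason was not tested.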

How the results depend on the processing

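All 190 values of the 10 genes under the 19 alternatives kept their direction and their call, with 9 genes higher and 1 lower each time. Scaling to total counts called 9179 genes higher and 2526 lower over all genes, and 3 pathway genes lower in place of 11. It also turned Acvr1b to 0.00076 from -0.51 on the log2 scale. That setting moved the median of all log2 fold changes from 0.05 to 0.56. Across the 10 fits that left out an animal, genes called ran from 5103 to 5842 higher and from 4881 to 5395 lower, and pathway genes from 57 to 61 higher and from 10 to 16 lower. Without puberulic acid replicate 1, genes called lower went from 0 to 1 among the signal SMADs and other BMP ligands and from 1 to 2 among SMAD inhibitors, and genes called higher from 0 to 1 among BMP responsive genes. Other BMP ligands also had 1 lower without puberulic acid replicate 5, other CCN genes 2 higher without puberulic acid replicate 2, and other receptors 2 higher without control replicate 1. In those fits the log2 fold changes ran from 1.92 to 2.20 for Tgfb1, 2.07 to 2.44 for Tgfb2, 2.74 to 3.21 for Tgfb3, 0.96 to 1.06 for Tgfbr1, 1.00 to 1.14 for Tgfbr2, 2.37 to 2.74 for Ccn1, 2.17 to 2.51 for Ccn2, 4.36 to 4.97 for Inhba, -2.18 to -1.76 for Bmp7 and 3.28 to 3.53 for Gdf15. The labels give no link between same-numbered animals beyond the number. Their deviations correlated at -0.036 on average (from -0.172 to 0.039), against 0.005 for other pairs (from -0.249 to 0.267). The replicate block called 10325 genes in place of 10622. Whether same-numbered animals shared a cage or a batch was not tested. Control counts of 1 to 12 limit the precision of the Inhba fold.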
